A study of Mus musculus with 4 samples.

Results

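The regions described here are all those on mouse chromosome 12 in a table of open chromatin regions, 1620 of 35019. They were taken by chromosome alone and placed in 1 Mb bins by their deposited start. The chromosome itself was chosen by the measured contrast between mdx and wild type libraries, since among the autosomes and X its tested regions were called most often. Counts and fold changes of that contrast are therefore given as a description of where the differences lie, and no test is built on them. Of the 1620 regions, 447 were promoter regions, which overlap the 1 kb on either side of the start of the gene the authors linked to them. A further 169 were linked to a gene without touching that window, and 1004 were unlinked, with no deposited gene.

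Open chromatin was measured by ATAC-seq, in which the transposase Tn5 cuts accessible DNA, in sorted quiescent satellite cells. The mdx group came from mice with a mutated dystrophin gene, a model of Duchenne muscular dystrophy, and the other group from wild type mice. There were 2 libraries per group, each from 10000 to 20000 cells treated with Tn5 at 37 °C for 30 min. The design text names 3 mice per condition, nothing in the labels ties a library to its own animal, and strain and age are not given in the labels used here, so the spread between libraries may be technical. A point mutation cannot be checked in accessibility values.

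Satellite cells are the stem cells of skeletal muscle. They lie under the basal lamina of the muscle fibre and, in the healthy adult, stay quiescent until damage activates them. Most open regions away from gene starts are candidate enhancers and insulators, which tend to differ between cell types, whereas promoters with many CpG dinucleotides are open in most cells. Chromosome 12 carries, among others, the homeobox gene Six4 of the myogenic lineage, the connective tissue factor Osr1, the hypoxia factor Hif1a, a cluster of clade A serine protease inhibitors and the imprinted Dlk1-Dio3 domain.

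Of 17 promoter regions called lower in mdx by the test described below, 9 were linked to a gene whose 250 bases before the RefSeq start overlapped the region in the reference table used (GRCm38.p6, the assembly behind mm10). The 4 of these 9 with the lowest log2 fold changes are printed 5′ to 3′ on the gene's own strand, because they are promoters on which the account of losses turns, with each CpG dinucleotide in capitals. They lie at chr12:51593091-51593340 on the plus strand (Coch), chr12:71309634-71309883 on the plus strand (Dact1), chr12:46818768-46819017 on the minus strand (Nova1) and chr12:75177333-75177582 on the minus strand (Kcnh5).
Coch: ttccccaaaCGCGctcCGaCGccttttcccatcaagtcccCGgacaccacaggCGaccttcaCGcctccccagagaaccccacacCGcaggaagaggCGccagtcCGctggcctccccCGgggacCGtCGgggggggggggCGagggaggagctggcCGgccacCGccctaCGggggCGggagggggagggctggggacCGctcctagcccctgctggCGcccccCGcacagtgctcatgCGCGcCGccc
Dact1: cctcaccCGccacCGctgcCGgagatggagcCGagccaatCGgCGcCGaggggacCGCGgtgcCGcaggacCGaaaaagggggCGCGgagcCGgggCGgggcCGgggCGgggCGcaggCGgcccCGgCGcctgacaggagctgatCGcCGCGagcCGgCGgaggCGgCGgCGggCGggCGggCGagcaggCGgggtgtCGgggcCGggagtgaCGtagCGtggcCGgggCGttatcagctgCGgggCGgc
Nova1: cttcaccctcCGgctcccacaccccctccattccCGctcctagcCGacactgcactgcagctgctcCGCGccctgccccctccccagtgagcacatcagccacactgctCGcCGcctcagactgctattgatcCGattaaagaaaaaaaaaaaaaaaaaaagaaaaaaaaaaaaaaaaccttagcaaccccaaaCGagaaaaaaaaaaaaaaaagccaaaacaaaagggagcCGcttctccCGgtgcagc
Kcnh5: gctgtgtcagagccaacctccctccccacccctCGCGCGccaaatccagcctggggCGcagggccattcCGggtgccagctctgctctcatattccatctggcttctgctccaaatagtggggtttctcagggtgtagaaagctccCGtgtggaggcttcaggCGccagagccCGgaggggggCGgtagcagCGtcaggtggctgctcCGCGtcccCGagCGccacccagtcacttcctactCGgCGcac

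The 4 sequences hold 24 CpG in Coch, 41 in Dact1, 11 in Nova1 and 16 in Kcnh5. Over the 9 promoters the median was 24 CpG and 65.6% G+C. The 125 promoters with a sequence called lower on all chromosomes had medians of 25 CpG and 71.6%, so this CpG level is not particular to chromosome 12. The 265 chromosome 12 promoters with a sequence that did not pass the threshold described below had medians of 20 CpG and 64.0%. The 6954 tested promoters with a sequence on all chromosomes had 18 CpG and 62.4%, and all 32851 RefSeq windows had 6 CpG and 52.4%. Within the 9 the number of CpG ran from 9 to 41, and Daam1 (9), Nova1 and Kcnh5 lay below the median of tested promoters. On both strands, the E-box CAGCTG occurred in 3 of the 9, the TEAD letters GGAATG in 2 and the RUNX letters TGTGGT in 1, against 11.5%, 9.69% and 9.23% of the tested promoters with a sequence and 13.0%, 12.64% and 14.05% of all RefSeq windows. The AP-1 letters TGANTCA and the CRE letters TGACGTCA occurred in 0 of the 9, against 3.51% and 3.44% of tested promoters and 6.75% and 1.55% of all windows. None of these motifs holds another within its letters.

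Values are given as scaled reads, the reads in a region times a factor that the authors set for each library, rounded. Dividing by those factors gave 110179 reads on chromosome 12 in mdx replicate 1 and 130605 in mdx replicate 2, against 136018 in wild type replicate 1 and 319707 in wild type replicate 2, whose counting error is therefore smallest. Chromosome 12 held 4.17% and 4.20% of nuclear scaled reads in mdx, against 4.28% and 4.32% in wild type. Of these, promoters took 50.0% and 54.2% in mdx, against 62.2% and 59.4% in wild type. The same shift was present over all nuclear regions, with 52.8% and 57.2% in mdx and 64.1% and 61.1% in wild type. Promoters of satellite cell markers were open in all 4 libraries, with 8 of 11 listed and summed scaled reads of 944 and 1026 in mdx and 1344 and 1182 in wild type. For the connective tissue cells of muscle known as fibro-adipogenic progenitors, 4 of 8 marker promoters were listed and summed to 255 and 250 in mdx and 148 and 175 in wild type. Of the other cell types, 1 of 6 endothelial promoters was listed (152 and 131 in mdx, 131 and 146 in wild type), 0 of 7 immune ones and 2 of 6 of the muscle fibre (318 and 461 in mdx, 519 and 437 in wild type). No listed marker promoter was at 0 in all libraries and none was called.

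A region was tested where it had at least 10 scaled reads in at least 2 libraries, and called where limma, run on log2(scaled reads + 1) over the whole table, gave a Benjamini-Hochberg adjusted p under 0.05. On chromosome 12, 1423 regions were tested, 58 were called higher in mdx and 26 lower, together 84 or 5.90%. With the medians of distal regions set equal between libraries the split was 65 higher and 173 lower, and with promoter medians set equal 95 higher and 19 lower. Over all chromosomes 4.18% were called, 3.3% higher and 0.881% lower. Among the autosomes and X the nearest were chromosomes 14 with 5.67% and 19 with 5.07%, and as a share of listed rather than tested regions chromosome 14 came first with 5.29% against 5.19% on chromosome 12. Chromosome Y, with 2 of 12 tested regions called (16.7%), was left out of these ranks. In all 84 called regions the mdx pair lay wholly above or wholly below the wild type pair, which is what the call selects. Leaving out any 1 library left 0 regions called on chromosome 12 and 0 on all chromosomes, so every call below needs all 4 libraries.

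Split by class, the surplus over the whole-table rates lay mostly in lower promoters and in higher unlinked regions. Promoters on chromosome 12 were called lower in 17 of 425 cases, 4.0% against 1.73% of all promoters, which would have given 7.34. They were called higher in 2 cases, 0.471% against 0.691%, and in either direction in 4.47% against 2.42%. Unlinked regions were called higher in 50 of 861 cases, 5.81% against 4.96%, which would have given 42.7. They were called lower in 8 cases, 0.929% against 0.447%, and in either direction in 6.74% against 5.4%. Of 137 linked regions outside promoters, 6 were called higher, 4.38% against 2.77%, and 1 lower, 0.730% against 0.424%, or 5.11% against 3.2% in either direction. At the whole-table rates of each class and direction, 61.2 regions would have been called, 22.8 fewer than the 84. Lower promoters made up 9.66 of this difference, higher unlinked regions 7.33 and lower unlinked regions 4.15. Chromosome 12 ranked first of 20 chromosomes (autosomes and X) by its share of promoters called lower, or second with distal medians set equal, and number 5 by its share of unlinked regions called higher.

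Medians over the tested regions of chromosome 12 were close to those of all chromosomes. The median log2 fold change, mdx minus wild type, was -0.04 over the 1423 tested regions and -0.01 over all 33161 tested regions. Promoters had a median of -0.28 on chromosome 12 and -0.25 on all chromosomes, and unlinked regions 0.18 and 0.22. Both mdx libraries lay above both wild type libraries in 370 regions, 26.0% against 26.8% on all chromosomes, and below them in 402, 28.3% against 25.9%. For promoters these shares were 9.65% above, against 10.4%, and 50.1% below, against 43.5%. For unlinked regions they were 33.8% above, against 36.3%, and 155 of 861 lay below, against 16%. Within a group, the median absolute difference between libraries was 0.35 on the log2 scale in mdx and 0.36 in wild type.

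The called regions fell into 41 of the 107 bins that hold a region (38.3%), against 850 of 2298 bins in the nuclear genome (37.0%). Of the 41, 30 had a higher region, 15 a lower one and 4 both. The bin at 10 Mb had 6 called regions, the bins at 5, 9, 94 and 104 Mb had 4 each, and 9 bins had 3 each, at 51, 70, 71, 72, 73, 75, 89, 90 and 103 Mb. These 14 bins held 49 called regions, 32 higher and 17 lower. In the nuclear genome 41 bins had 4 or more called regions and 5 of these were on chromosome 12. Bins with 3 or more regions called lower numbered 13 in the genome, of which 4 were on chromosome 12.

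**Figure D1:**
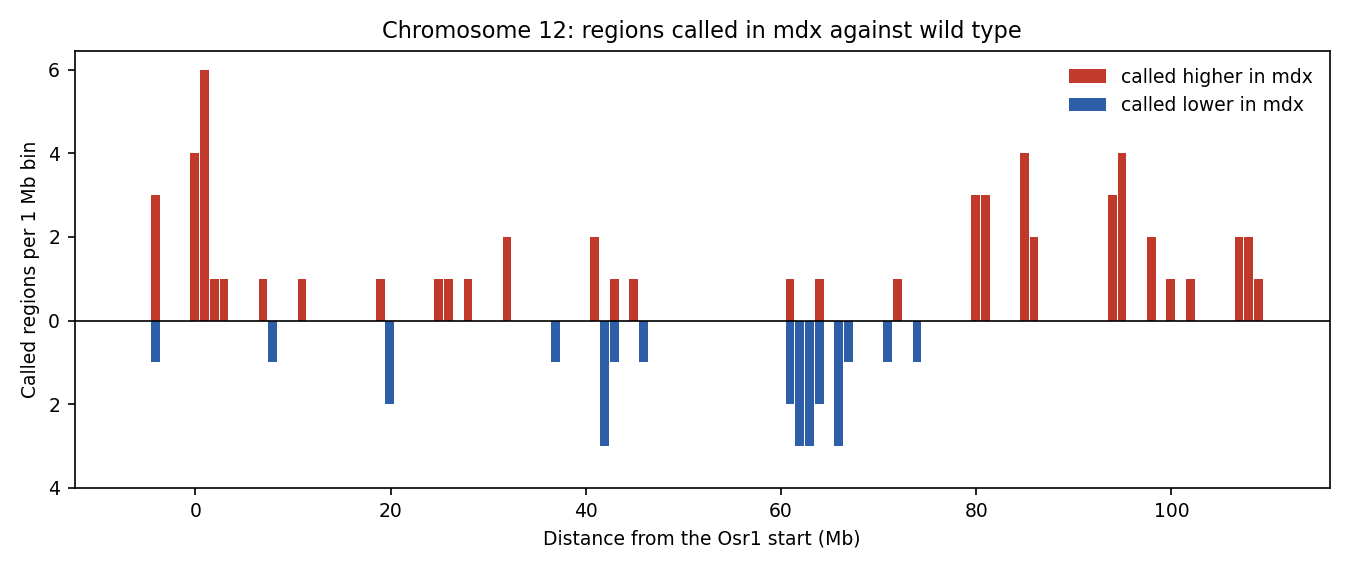
Number of called regions in each 1 Mb bin of chromosome 12, called higher in mdx above the line and called lower below it, against the distance of the bin's centre from the Osr1 start in Mb. The tallest bin, just beyond Osr1, holds 6 regions called higher, and 3 regions were called lower in the bins at 51, 71, 72 and 75 Mb.

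Before 89 Mb calls went both ways, 30 higher and 26 lower, and from 89 Mb to the end 28 regions were called higher and 0 lower. The bin at 89 Mb had 3 tested regions, and the 10 Mb windows from 90, 100 and 110 Mb had 112, 141 and 106. Lower calls made up 1.83% of tested regions on chromosome 12 and 0.881% on all chromosomes, and whether their absence from 89 Mb on departs from these shares was not tested. The cut at 89 Mb and the stretches named below were marked out after their values were seen. Bins 9, 10, 89, 90, 94, 95, 103 and 104 held 27 of the 56 higher calls outside promoters, in 94 tested regions (28.7%), against 29 in the other 904 (3.21%). The bins from 51 to 53 Mb and from 70 to 77 Mb held 16 of the 17 promoters called lower, in 64 tested promoters (25.0%), against 1 in the other 361 (0.277%). The first set of bins was picked by its higher calls and the second with its lower calls known, so these shares differ through that choice.

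**Figure D2:**
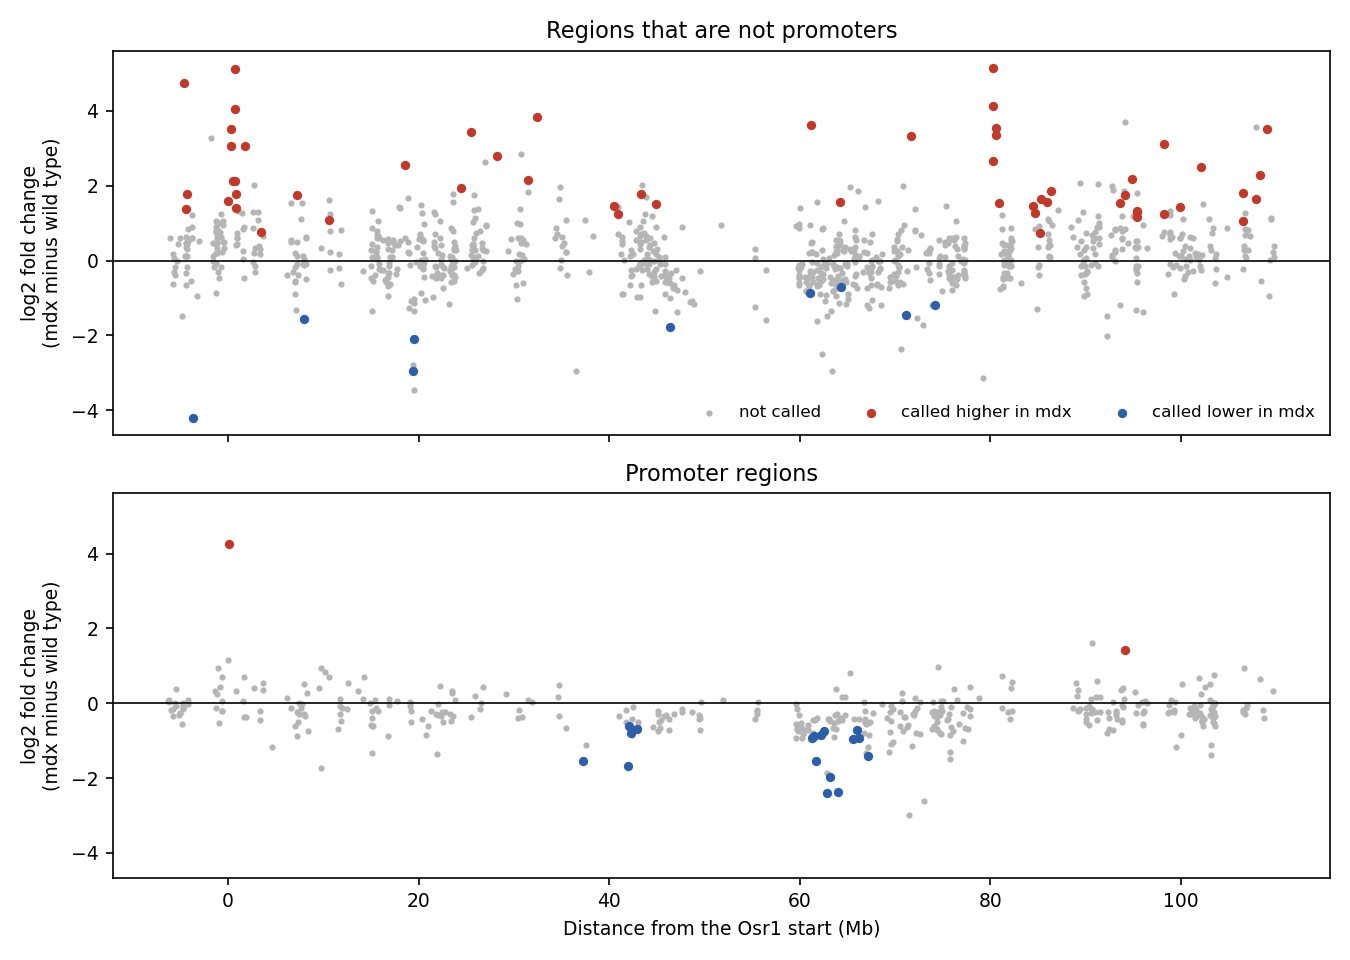
Log2 fold change (mdx minus wild type) of each tested region of chromosome 12 against its distance from the Osr1 start in Mb, with regions that are not promoters above and promoter regions below. Red points were called higher in mdx, blue points lower and grey points not; 16 of the 17 blue promoters lie in 2 groups, and of 16 red points above 3 in the upper panel 8 lie in the runs beyond Osr1 and at Nrxn3 and 8 elsewhere.

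The stretch with the most gains begins at Osr1, a zinc finger transcription factor known from connective tissue progenitors of the limb and muscle. From 9 to 11 Mb, 24 regions were tested, 10 were called higher and 0 lower, and all 24 had a positive log2 fold change, with a median of 1.25. Both mdx libraries exceeded both wild type libraries in 21 of the 24, 87.5% against 26.0% of tested regions of the chromosome. Their scaled reads summed to 3301 and 2687 in mdx and 1582 and 1619 in wild type. The Osr1 promoter at chr12:9574360-9574771 held 88 and 100 in mdx and 37 and 46 in wild type, with a log2 fold change of 1.17 ± 0.31 (SE), and was not called. The 2 mdx libraries were both above the 2 wild type libraries there, as in 9.65% of tested promoters of the chromosome. Over the same libraries the summed fibro-adipogenic marker promoters given above were also higher in mdx, and their part in this result was not tested. Among them, Col1a2 held 137 and 123 in mdx and 72 and 69 in wild type, and Col3a1 76 and 78 against 42 and 56. Col1a1 differed less, with 32 and 37 in mdx and 28 and 31 in wild type. The groups overlapped at Dcn, with 10 and 12 in mdx and 6 and 19 in wild type.

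Starting 10.3 kb beyond the Osr1 start, 8 neighbouring tested regions in a row were called higher, over 766 kb that overlap 0 protein-coding genes in RefSeq. This was the longest such run on chromosome 12. The longest elsewhere had 12 regions, on chromosome 4, and 3 of the 40 runs of 3 or more were on chromosome 12. The first region of the run, chr12:9584757-9585109, held 127 and 125 in mdx and 43 and 39 in wild type (log2 fold change 1.60 ± 0.29, SE). It was open in both groups, and the libraries of a group nearly coincided.

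In the other 7 regions of the run the wild type libraries held 0 to 27 scaled reads, where the median wild type mean of tested unlinked regions of the chromosome was 34. At 298 kb beyond the Osr1 start, chr12:9872242-9872542 held 106 and 88 in mdx and 5 and 11 in wild type (3.52 ± 0.47). Its neighbour at chr12:9898516-9898807 held 77 and 48 in mdx and 5 and 8 in wild type (3.07 ± 0.51). The groups were far apart in both regions, although the mdx libraries of the second differed from each other more than those of the first. At 505 kb, chr12:10079434-10079785 held 70 and 70 in mdx and 18 and 13 in wild type (2.12 ± 0.40). At 755 kb, chr12:10329533-10329805 held 69 and 31 in mdx and 1 and 3 in wild type (4.06 ± 0.69), with more spread between its mdx libraries than most regions of the run.

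The remaining regions of the run include 2 with almost no wild type reads, for which no fold change is given. Of these, chr12:10266332-10266639 held 51 and 45 in mdx and 0 and 1 in wild type. The promoter region of an unnamed processed pseudogene at chr12:9689672-9689871 held 35 and 29 in mdx and 0 and 2 in wild type. Both are read as open in mdx and near the counting floor in wild type. The run closes at chr12:10350679-10351031 with 95 and 88 in mdx and 27 and 15 in wild type (2.13 ± 0.39), 18.9 kb from Nt5c1b, a cytosolic nucleotidase. The next tested region is the promoter of Rdh14, a retinol dehydrogenase, which was open in all libraries with 513 and 531 in mdx and 436 and 396 in wild type (0.33 ± 0.16) and was not called. Beyond it, chr12:10399892-10400286 held 86 and 59 in mdx and 18 and 22 in wild type (1.79 ± 0.39), and chr12:10451375-10451933 held 148 and 174 in mdx and 50 and 72 in wild type (1.40 ± 0.28), both called higher.

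**Figure D3:**
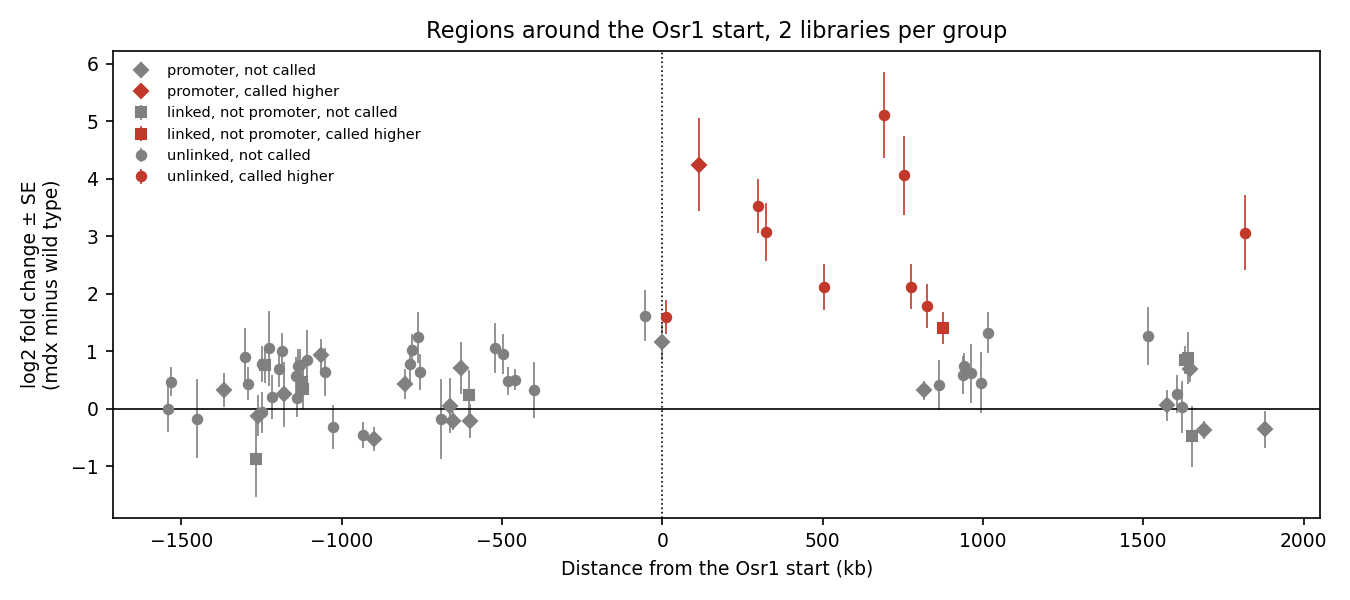
Log2 fold change ± SE (mdx minus wild type) of the tested regions from 8 to 12 Mb against their distance from the Osr1 start in kb, by class and call. The called regions stand from 10.3 to 877 kb beyond the start, with 1 more at the far right, and no region before the start was called.

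The bins on either side had fewer calls. Both mdx libraries exceeded both wild type libraries in 53.8% of tested regions from 8 to 9 Mb and 45.5% from 11 to 12 Mb. Of 39 tested regions from 8 to 9 Mb 0 were called, with a median log2 fold change of 0.44. Of 11 from 11 to 12 Mb 1 was called, with a median of 0.25. That 1 region, chr12:11391614-11391783 inside Vsnl1, a calcium sensor of the visinin family, held 48 and 29 in mdx and 6 and 2 in wild type (3.06 ± 0.65).

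The second longest run lay in and beyond Nrxn3, which encodes a neurexin, a cell adhesion protein known from synapses. Of 6 regions inside the gene, 5 were called higher, and with a sixth region 125 kb beyond it they formed a run of 6 over 649 kb. The region at chr12:89811954-89812558 held 608 and 485 in mdx and 18 and 49 in wild type (log2 fold change 4.14 ± 0.37, SE). It was the most open of the called unlinked regions in mdx, and the wild type libraries lay far below both mdx libraries. Next to it, chr12:89831381-89831658 held 87 and 78 in mdx and 10 and 15 in wild type (2.65 ± 0.41). The region at chr12:89888828-89889086 held 51 and 23 in mdx and 0 and 0 in wild type, at least 14.4-fold higher in mdx against a floor of 3 reads per library. Both showed open chromatin in mdx at places with few or no reads in wild type.

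A pair of neighbouring regions less than 1 kb apart followed. The one at chr12:90165593-90165920 held 36 and 84 in mdx and 2 and 9 in wild type (3.36 ± 0.67), and the one at chr12:90166161-90166362 held 73 and 44 in mdx and 7 and 2 in wild type (3.56 ± 0.61). The mdx library that was higher differed between the 2 regions. The region beyond the gene, chr12:90460203-90460496, held 91 and 65 in mdx and 28 and 24 in wild type (1.53 ± 0.36). The only other region inside Nrxn3, at chr12:88818861-88819049, held 6 and 0 in mdx and 29 and 17 in wild type and was not called. The 15 tested regions of the bin at 90 Mb that were not called went both ways, with a median log2 fold change of -0.14, both mdx libraries above both wild type libraries in 4 and below them in 6. The table holds no region linked to Nrxn3 by name, so its promoters are not described here.

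**Figure D4:**
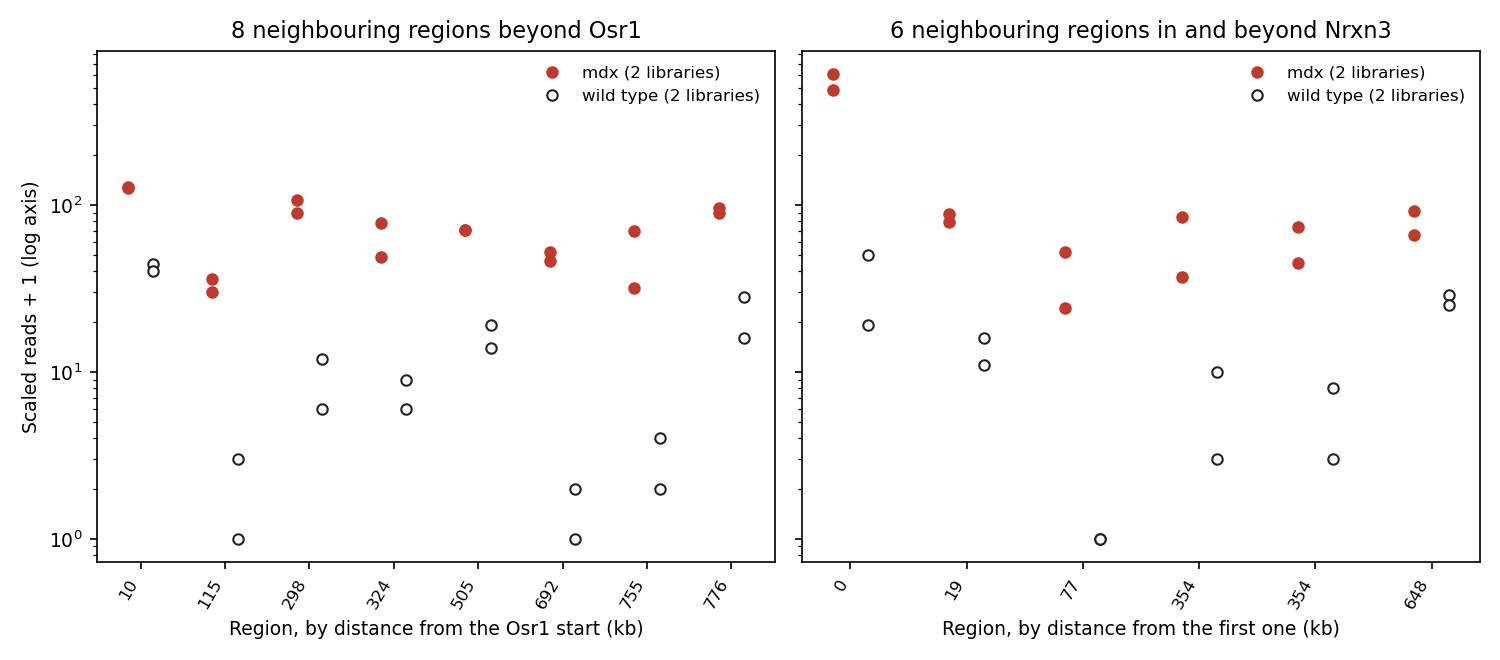
Scaled reads + 1 per library on a log axis for the 8 neighbouring called regions beyond Osr1 (left) and the 6 in and beyond Nrxn3 (right), with filled red points for the 2 mdx libraries and open points for the 2 wild type libraries. The groups do not overlap in any of the 14 regions, and in 6 of them a wild type library has 2 or fewer scaled reads.

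From 94 to 96 Mb, a stretch with 0 promoter regions, 6 of 24 tested regions were called higher and 0 lower, with a median log2 fold change of 0.64. Flrt2, which encodes a transmembrane adhesion and axon guidance protein, lies between the fifth and the sixth of them, 200 kb from one and 178 kb from the other. Open in every library, chr12:94804528-94805392 held 456 and 457 in mdx and 280 and 267 in wild type (0.74 ± 0.18, SE), the smallest called gain on the chromosome. It was also among the most open, and its libraries were tightly grouped. The region at chr12:94070996-94071549 held 174 and 121 in mdx and 43 and 62 in wild type (1.47 ± 0.31), and chr12:95491623-95492267 held 236 and 139 in mdx and 50 and 74 in wild type (1.56 ± 0.32). The linked region of Flrt2 held 142 and 82 in mdx and 42 and 62 in wild type (1.07 ± 0.35) and was not called.

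From 103 to 105 Mb, 7 of 40 tested regions were called higher and 0 lower. In the first, chr12:103189796-103190148, 4.3 kb from Prima1, which anchors acetylcholinesterase in the membrane, mdx held 129 and 131 and wild type 38 and 51 (1.54 ± 0.30, SE). The other 6 lay in 2 neighbourhoods, the first of them the cluster of clade A serpins, secreted inhibitors of serine proteases and hormone carriers. Of 19 serpin genes on the list used, 3 had a linked region, and 2 of these were called higher. The Serpina6 promoter (chr12:103656943-103657170), of the corticosteroid-binding globulin gene, held 104 and 71 in mdx and 33 and 30 in wild type (1.42 ± 0.35), 1 of the 2 promoters called higher on the chromosome. The Serpina16 region (chr12:103673256-103673544) held 140 and 95 in mdx and 27 and 41 in wild type (1.76 ± 0.35). The Serpina12 region held 247 and 170 in mdx and 172 and 126 in wild type (0.47 ± 0.26) and was not called. At chr12:104415574-104416094, 1.24 kb from Serpina3n, an acute-phase protease inhibitor, a region that the authors linked to a snoRNA held 376 and 220 in mdx and 46 and 86 in wild type (2.17 ± 0.33). In these serpin-cluster regions, mdx replicate 1 was above mdx replicate 2. That direction is general, with a median log2 difference of 0.17 over tested unlinked regions of the chromosome and 0.15 over those of all chromosomes.

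The second neighbourhood is Syne3, which encodes nesprin-3, a protein of the outer nuclear membrane that binds the cytoskeleton. Of 6 tested regions inside it, 3 were called higher. The one at chr12:104978315-104978735 held 182 and 164 in mdx and 62 and 76 in wild type (1.32 ± 0.26). The other 2 had log2 fold changes of 1.18 ± 0.30 and 1.30 ± 0.33.

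Gains outside these stretches included regions inside single genes. In Cdca7l, a Myc-interacting nuclear protein, chr12:117872392-117872811 held 170 and 160 in mdx and 38 and 29 in wild type (2.28 ± 0.30, SE). In Hdac9, a class II histone deacetylase that represses MEF2 target genes in muscle, chr12:34075893-34076523 held 195 and 174 in mdx and 42 and 54 in wild type (1.93 ± 0.28). In Slc8a3, a sodium-calcium exchanger of skeletal muscle, chr12:81244576-81244976 held 88 and 73 in mdx and 7 and 7 in wild type (3.34 ± 0.44). All 3 had their libraries close together within each group. Regions inside Snx13 (32 and 27 in mdx, 1 and 3 in wild type), Akap6 (59 and 44 in mdx, 11 and 18 in wild type) and Immp2l (43 and 27 in mdx, 6 and 8 in wild type at the first of 2) were also called higher, with fewer reads.

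The receptor gene Vipr2, for vasoactive intestinal peptide, held 2 called regions among 5, with 243 and 250 in mdx and 98 and 142 in wild type at the first (1.06 ± 0.24), and 124 and 159 in mdx and 23 and 67 in wild type at the second (1.81 ± 0.42). In Klhl29, a kelch family gene with 17 tested regions, 2 were called higher, and the more open, chr12:5204104-5204668, held 323 and 231 in mdx and 87 and 123 in wild type (1.39 ± 0.26). At 5 Mb, chr12:5014537-5014861 inside Atad2b, a bromodomain protein, held 46 and 30 in mdx and 1 and 0 in wild type. Prkd1, a kinase of the protein kinase D family, had 1 higher region of 4, with 213 and 215 in mdx and 77 and 104 in wild type (1.25 ± 0.25), while its promoter held 460 and 562 in mdx and 716 and 576 in wild type (-0.34 ± 0.18) and was not called.

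As a group, the 58 regions called higher had medians of 97.0 scaled reads in mdx, against 28.75 in wild type, where regions not called had 54.0 in mdx and 49.0 in wild type. In 16 of the 58 both wild type libraries were under 10. Their median width was 347.5 bp, against 337 bp for regions not called, and for unlinked regions alone 347.5 bp against 282 bp. Of the 58, 25 lay inside a protein-coding gene in RefSeq (43.1%), against 53.1% of all listed regions of the chromosome, which include many more promoters. For unlinked regions alone the share was 44.0%, close to the 42.9% of listed and 46.9% of uncalled unlinked regions. Because a region enters the test through whichever group is high, the low wild type values of this group are in part a product of its selection.

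The 26 regions called lower had a median width of 752 bp and medians of 100.25 scaled reads in mdx, against 223.5 in wild type, and 17 of them were promoters, with a median width of 918 bp, against 529 bp for promoters not called. From 70 to 77 Mb, 48 of 53 tested promoters had a negative log2 fold change, 90.6% against 75.8% over the chromosome. Of the 53, 12 were called lower and 0 higher, and the median was -0.56. The scaled reads of the 53 summed to 8904 and 9717 in mdx and 15624 and 13071 in wild type. Both mdx sums were thus below both wild type sums. Both mdx libraries lay below both wild type libraries in 41 of the 53, 77.4% against 43.5% of all promoters. The 110 unlinked regions of the same stretch had a median of -0.18, against 0.22 for unlinked regions of all chromosomes, and summed to 7875 and 7253 in mdx and 8583 and 8183 in wild type. The unlinked regions of this stretch were lower in mdx by less than its promoters, and their median turned to 0.01 when promoter medians were set equal between libraries. Under that scaling the promoters of the stretch kept a median of -0.36, against -0.03 for promoters outside this stretch and the next one. The share of reads in promoters given above was lower in mdx over the whole genome, and its part in these values was not tested.

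Within 70 to 77 Mb the called promoters ranged from little to widely open. The Lrrc9 promoter (chr12:72441887-72442478), of a leucine-rich repeat gene, held 23 and 10 in mdx and 76 and 93 in wild type (log2 fold change -2.39 ± 0.44, SE). The Prkch promoter (chr12:73584315-73584910), of protein kinase C eta, held 14 and 35 in mdx and 122 and 116 in wild type (-2.37 ± 0.41). The mdx libraries of Lrrc9 and Prkch differed widely from each other, and neither came near the wild type libraries. Of 5 tested regions inside Prkch, 1 was called higher, with 86 and 60 in mdx and 22 and 25 in wild type (1.57 ± 0.37), so the promoter and a region in the gene body were called in opposite directions.

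Dact1 and Daam1 encode proteins that bind Dishevelled in Wnt signalling, an antagonist and a formin. The Dact1 promoter (chr12:71309551-71310088), whose sequence has 41 CpG, held 75 and 60 in mdx and 200 and 195 in wild type (-1.54 ± 0.26). The Daam1 promoter (chr12:71830701-71831374) held 269 and 300 in mdx and 561 and 465 in wild type (-0.84 ± 0.18). The gap was wider than the spread within either group in both.

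The promoter of Sptb, the beta spectrin of erythrocytes and muscle, held 66 and 98 in mdx and 228 and 200 in wild type (-1.40 ± 0.26), and that of Kcnh5, a voltage-gated potassium channel, 116 and 121 in mdx and 213 and 253 in wild type (-0.96 ± 0.23). Frmd6, a FERM domain protein of the Hippo pathway, had 229 and 242 in mdx and 481 and 418 in wild type (-0.93 ± 0.18). Arid4a, a chromatin protein that binds the retinoblastoma protein, had 409 and 480 in mdx and 825 and 804 in wild type (-0.88 ± 0.16). The other promoters called lower in this stretch were those of Sgpp1, a sphingosine-1-phosphate phosphatase (-0.92), Jkamp (-0.74), Ppp2r5e, a regulatory subunit of protein phosphatase 2A (-0.72), and an unnamed processed pseudogene (-1.98).

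Hif1a had 0 regions linked by name, but a broad region inside it, chr12:73907492-73908576, held 402 and 425 in mdx and 728 and 635 in wild type (-0.72 ± 0.16) and was called lower. The promoter of Six4, a homeobox factor of muscle precursors, held 39 and 40 in mdx and 61 and 55 in wild type (-0.54 ± 0.34) and was not called. At Six4 and in the Hif1a region both mdx libraries were below both wild type libraries. The same held in 77.4% of tested promoters from 70 to 77 Mb and 50.1% of those of the chromosome. Six4 is therefore not set apart from other promoters by this. For unlinked regions of the chromosome, the class of the Hif1a region, it held in 155 of 861, and the call itself selects for it.

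The second place of lower promoters lay from 51 to 53 Mb. All 11 tested promoters had a negative log2 fold change, against 75.8% of tested promoters of the chromosome. Their median was -0.60, and 4 were called lower. With promoter medians set equal, 9 of the 11 stayed negative, with a median of -0.40. The 22 unlinked regions had a median of 0.14, or -0.18 with distal medians set equal, and 1 was called higher. The Coch promoter (chr12:51593063-51593549), of cochlin, an extracellular matrix protein known from the inner ear, held 37 and 29 in mdx and 132 and 86 in wild type (-1.67 ± 0.34, SE). The Arhgap5 promoter, of a GTPase-activating protein, held 800 and 1028 in mdx and 1664 and 1295 in wild type (-0.69 ± 0.17). Strn3, a striatin scaffold of protein phosphatase 2A, had 583 and 715 in mdx and 982 and 975 in wild type (-0.60 ± 0.15), the smallest called loss. Coch was little open, Arhgap5 and Strn3 were widely open, and the groups were apart in each.

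The only promoter called lower elsewhere was that of Nova1, a neuronal splicing regulator, at chr12:46818895-46819813. It held 206 and 211 in mdx and 584 and 630 in wild type (-1.54 ± 0.18), with very little spread in mdx. Outside the 2 stretches, 361 promoters had a median log2 fold change of -0.22, near the -0.25 of all promoters. This pooled median covers lower values beside the stretch that starts at 70 Mb. From 69 to 70 Mb, the 14 tested promoters had a median of -0.65, with 0 called lower. The median was -0.54 from 60 to 70 Mb (20 promoters), -0.36 from 80 to 90 Mb (60) and -0.14 from 90 to 100 Mb (20). Lower promoter values thus did not end at the edges of that stretch.

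**Figure D5:**
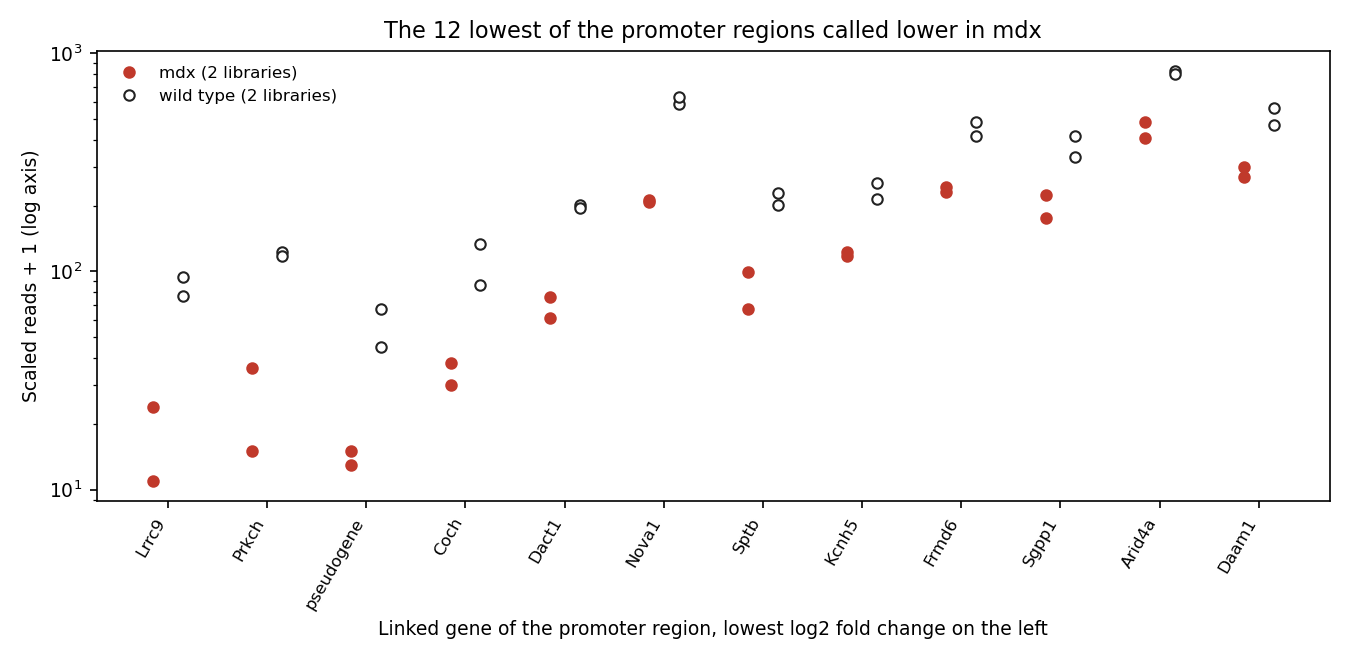
Scaled reads + 1 per library on a log axis for the 12 lowest log2 fold changes among the promoter regions called lower in mdx, ordered from Lrrc9 (-2.39) to Daam1 (-0.84), with filled red points for the 2 mdx libraries and open points for the 2 wild type libraries. The groups do not overlap in any of the 12, and the 4 promoters on the left hold at most 132 scaled reads in any library, the highest being Coch in wild type.

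Of the 8 unlinked regions called lower, 2 lay close together at 29 Mb with few mdx reads. The first, chr12:29029565-29029831, held 3 and 16 in mdx and 67 and 58 in wild type (-2.94 ± 0.62), and the second, chr12:29083511-29084134, 15 and 17 in mdx and 44 and 116 in wild type (-2.10 ± 0.48). The wild type libraries of the second differed widely, and the groups were apart in both. Nearer to genes, chr12:17507119-17507655 lies 37.2 kb from Odc1, the first enzyme of polyamine synthesis, and held 40 and 52 in mdx and 156 and 117 in wild type (-1.55 ± 0.30). A region inside both Papln and Numb, chr12:83794985-83795471, held 57 and 73 in mdx and 162 and 134 in wild type (-1.18 ± 0.28), and Numb is known as a Notch inhibitor in dividing satellite cells. At chr12:5925854-5926176, 550 kb from the nearest protein-coding gene, mdx had 0 and 1 and wild type 24 and 26, too few mdx reads for a fold change.

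The gene lists held few of the called promoters, and with 4.47% of tested promoters and 5.90% of all tested regions of the chromosome called, 0 or 1 call in a list of this size is close to that share. Of the 8 tested genes for limb, muscle and lineage transcription factors 0 were called (median log2 fold change -0.23), and of 9 AP-1, stress and inflammatory genes 0 were called (-0.33). Fos, an AP-1 subunit, had 312 and 390 in mdx and 531 and 560 in wild type (-0.64 ± 0.18). Hspa2, a heat shock protein, had 930 and 1068 in mdx and 1577 and 1282 in wild type (-0.51 ± 0.15). The groups were apart at both promoters without a call, with mdx below wild type as in 50.1% of tested promoters of the chromosome.

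Of 12 extracellular matrix and adhesion genes, 1 was called lower (Coch), with a median of 0.09, or -0.25 with distal medians set equal. Of 16 kinase and signalling genes, 1 was called lower (Prkch), with a median of -0.41. The value was negative in 15 of the 16, where 75.8% of tested promoters of the chromosome were negative. Of 11 chromatin and RNA regulators, 1 was called lower (Arid4a), with a median of -0.36. The imprinted domain had 2 tested members of 7 and the interferon-induced list 3 of 5, with 0 called. These medians stand beside -0.28 for all tested promoters of chromosome 12.

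A stretch from 18 to 25 Mb contributed regions but few tests. It held 196 listed regions, of which 45 were tested and 151 had too few reads, in a chromosome where 197 regions in all, 12.2%, were not tested, against 5.31% of the whole table. The highest value of any library in a region not tested was 39. The bin at 20 Mb held 70 listed regions, more than any other bin of the chromosome. The stretch's 1 called region, chr12:20199424-20223047, is 23623 bp wide and linked to a processed pseudogene, and held 158 and 164 in mdx and 65 and 86 in wild type (1.10 ± 0.26). The share of regions called on chromosome 12 depends on whether these regions are in its denominator, as the shares of listed regions above show.

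The threshold cuts through a continuum. The 3 regions just inside it were the Strn3 promoter given above, chr12:55916361-55916736 with 11 and 14 in mdx and 53 and 38 in wild type (-1.77 ± 0.46), and the third Syne3 region, with 129 and 95 in mdx and 35 and 56 in wild type. The 3 just outside were the promoter of Psma3, a proteasome subunit, with 177 and 205 in mdx and 380 and 296 in wild type (-0.81 ± 0.21), a region in Immp2l with 82 and 36 in mdx and 15 and 14 in wild type (1.84 ± 0.48), and a region in Lgmn, a lysosomal protease, with 51 and 40 in mdx and 16 and 8 in wild type (1.90 ± 0.49). The groups were apart in all 6. As each library pools many cells, fewer cells with a region open and less opening per cell cannot be told apart in any of these values.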

How the data were processed

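The deposited table gives 1 value per region and library. The build was mm10, per the submitters' processing notes, which name STAR (2.5.3a), MACS2 (2.1.0), Picard (2.9.0), Trimmomatic (0.33), DESeq and DESeq2 without their roles. Nothing used here says how duplicates or the Tn5 offset were handled, or if peaks came from pooled libraries. The unit of the deposited table is called a score, since its values show that the authors had multiplied each library's reads by a factor (1.382 and 1.162 in mdx, 1.2216 and 0.49205 in wild type) and rounded to whole numbers. Coordinates are printed as deposited, with no statement found on whether they count from 0 or 1.

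A count model was planned for unscaled counts only. Hence limma 3.58.1 (R 4.3.3, intensity trend, group as the only term) was run on log2(value + 1), a scale that understates changes of low regions, over 33161 regions with at least 10 in at least 2 libraries. The step was tested on simulated data. Recovered reads in all regions were 3208372 and 3607256 in mdx and 3693284 and 8165412 in wild type. These are reads in listed regions, not library totals, and floors cover counting error only.

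The members and the gene and marker lists were chosen with earlier results of these data known. Named regions are called regions of the 8 leading bins (most calls, with the tie among bins with 3 calls broken by share called, so that those at 51, 89 and 90 Mb entered and 6 did not), the 10 highest and 10 lowest called promoters and unlinked regions, called and most open list members, and the 3 regions on each side of the threshold; stretches and further genes were named after their values were seen. Gene positions came from RefSeq (GRCm38.p6), and 360 of 375 deposited names matched, all of them overlapping. Exons and introns, and the sequences of distal regions, were not used here. Alternatives covered scaling, filter, pseudocount, threshold, promoter window, leaving out each library and the replicate block. The results of some genes are not reported here.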

Additional observations from a re-analysis of the deposited data

How the results depend on the processing

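The 84 called regions kept their sign under all alternatives that tested them. As the groups do not overlap in any of the 84, only the changes of scaling could have turned a sign. Leaving out a library, or changing the filter, pseudocount, threshold or pairing, could not. Of the 84, 84 stayed called with scaling to nuclear totals, a pseudocount of 10 and the replicate block, 67 with a pseudocount of 0.1 and 38 without the filter. Among the autosomes and X, chromosome 12 had the highest share of tested regions called, or the second highest (no filter, a threshold of 0.1, crossed pairing), in all settings that kept 4 libraries. The chromosome was chosen by this rank and the settings reuse the same libraries, so this is a description and no independent support for an excess.

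Leaving out 1 library leaves a group with 1 library, whose spread is then taken from the other group. The range over these 4 fits was 0 to 0 for every count and share of calls on the chromosome.

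With promoter medians set equal, which moves the median of all regions to 0.18, 95 regions were called higher (80 unlinked, 7 promoters), 4 unlinked ones lower, and the chromosome's median log2 fold change was 0.15, with -0.079 for promoters and 0.37 for unlinked regions. With distal medians set equal, which moves the median of all regions to -0.34, 173 were called lower (121 promoters, 43 unlinked), 16.7% of tested regions were called, and the medians were -0.371 (all), -0.61 (promoters) and -0.15 (unlinked). Scaling to nuclear totals gave 4 promoters called higher and a median of 0.0063, and cyclic loess 6 promoters called higher. Without the filter 29 were called higher (25 unlinked, 1 promoter) and 9 lower (7 promoters, 2 unlinked), 2.35% in all, with 19 in the 8 leading bins, against 31 under the settings of the report. A mean of at least 50 gave 44 lower (34 promoters), 6 promoters higher and 13.9% called. A pseudocount of 0.1 gave 1 promoter higher and 5 unlinked regions lower, and a pseudocount of 10 gave 46 lower (29 promoters, 14 unlinked) and 9.14% called. A threshold of 0.1 gave 110 higher (93 unlinked, 6 promoters), 68 lower (45 promoters, 20 unlinked) and 12.5% called. A promoter window of 2 kb gave 4 promoters called higher. For all of these the cause was not tested.

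The replicate numbers are shared by the groups, but same-numbered libraries did not deviate together (r = -0.11 over 33152 regions, 2 pairs), so they were not taken as pairs. The replicate block gave 104 called higher (91 unlinked, 4 promoters), 49 lower (30 promoters, 16 unlinked) and 10.8% called. Crossed pairing, added after the data were seen, gave 161 higher (138 unlinked, 8 promoters), 115 lower (81 promoters, 29 unlinked), 19.4% called and 48 in the leading bins.

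Among named regions that were not called, the log2 fold change turned for Id2 (0.066 with promoter medians set equal, 0.094 with cyclic loess), Rsad2 (0.147 and 0.055), Sp4 (0.0076 with cyclic loess), Itgb8 (-0.00018764), Cmpk2 (-0.23), Adam17 (-0.23) and Rtl1 (-0.18), the last 4 with distal medians set equal. Leaving out each library gave -0.16 to 0.061 for Rsad2, -0.29 to 0.49 for Adam17 and -0.70 to 0.95 for Rtl1. With 2 libraries per group, regions near 10 scaled reads have large errors, and small differences at them were not detectable at this depth.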
